A study of Mus musculus with 12 samples.

Results

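The genes described here are 10 transcripts known from macrophages: the growth factor receptor Csf1r, the surface receptor Adgre1 (F4/80), the lysosomal glycoprotein Cd68, the lysozyme Lyz2, the 3 chains of complement C1q (C1qa, C1qb, C1qc), the signalling adaptors Fcer1g and Tyrobp, and the lysosomal membrane protein Laptm5. They were chosen by name, and all 10 were among the 55291 gene symbols of the count files. They were followed through 12 low-input RNA-seq libraries, 3 in each of 4 groups. BM-AML and Lung-AML were bone marrow and lung of VECadCre-tdTomato mice that had received AML Trp53(R172H/Δ) cells, that is, acute myeloid leukaemia cells in which Trp53, a tumour suppressor gene, has a missense copy and a lost copy. BM-Ctrl and Lung-Ctrl were the same tissues of VECadCre-tdTomato mice that had not been transplanted. In every group, the labels call the cells Vecad+ endothelial cells, and in this mouse line Cre is driven from the promoter of VE-cadherin (Cdh5). The labels give neither the age of the mice nor how many mice a library came from. P-values therefore measure the spread between these samples, which may be technical.

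Macrophages are tissue phagocytes that take up dying cells and microbes, and in the marrow they surround developing red cells and recycle iron. Csf1r binds Csf1 and Il34 and keeps macrophages alive. C1q is the recognition unit of the classical complement pathway, is built from 3 kinds of chain, and is made largely by macrophages rather than by the liver. Fcer1g and Tyrobp carry activation motifs (ITAM) that pass the signal of Fc receptors and of receptors such as Trem2 to the kinase Syk, and they are also expressed in mast cells, natural killer cells and immature myeloid cells.

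Cdh5, which defines the labelled cell type, was low in every marrow library. It had 0.389, 0.955 and 0.558 CPM (counts scaled to the library total in units of 1e6, with TMM factors) in BM-AML, against 3.54, 6.53 and 4.67 CPM in BM-Ctrl. In lung it had 3.90, 31.8 and 12.1 CPM in Lung-AML, against 75.4, 348 and 140 CPM in Lung-Ctrl. The summed level of 20 pan-endothelial genes ranged from 281 to 303 CPM in BM-AML, against 240 to 353 CPM in BM-Ctrl, and from 368 to 1429 CPM in Lung-AML, against 3071 to 10490 CPM in Lung-Ctrl. The marrow sums hide opposite changes. In BM-AML 9 of the 20 genes were lower and 1 higher at an adjusted p under 0.05 by edgeR, with a median log2 fold change of -1.75. Of all genes tested, 23.5% were lower and 20.4% higher. Esam, S1pr1 and Egfl7, named after their values were seen, had the highest means in BM-AML. These were 78.4, 78.9 and 72.1 CPM, against 24.0, 33.2 and 40.4 CPM in BM-Ctrl. Total counts were 12.8 to 24.8 M per library in BM-AML, 17.0 to 21.8 M in BM-Ctrl, 26.2 to 39.2 M in Lung-AML and 24.1 to 28.6 M in Lung-Ctrl. In bulk libraries of this kind, fewer cells of a type and less of its RNA per cell cannot be told apart.

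The C1q chains lie side by side on mouse chromosome 4 (GRCm38, GENCODE), all on the minus strand. C1qb spans bases 136880129 to 136886187, C1qc 136889804 to 136893065 and C1qa 136895917 to 136898803. The gaps are 3616 bases between C1qb and C1qc and 2851 bases between C1qc and C1qa, with 0 annotated genes between them. Since all 3 chains peaked in the same library, the bases ahead of the start are shown for the 2 chains found in the RefSeq promoter table (GRCm38.p6), C1qb at chr4:136886201-136886450 and C1qc at chr4:136893066-136893164. Both are read 5′ to 3′ on the minus strand, bases covered by a GENCODE exon are left out, and capitals mark GAGGAA or its reverse complement TTCCTC, the core motif of the myeloid transcription factor PU.1.
C1qb: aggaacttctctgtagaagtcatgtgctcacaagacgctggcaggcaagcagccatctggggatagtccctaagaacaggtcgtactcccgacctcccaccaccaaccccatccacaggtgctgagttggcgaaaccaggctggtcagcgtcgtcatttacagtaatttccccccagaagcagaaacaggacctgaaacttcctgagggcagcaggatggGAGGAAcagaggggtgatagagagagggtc
C1qc: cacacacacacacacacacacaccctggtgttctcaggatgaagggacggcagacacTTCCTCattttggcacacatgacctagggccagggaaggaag
Of the 10 genes, 6 had an entry in the table (Cd68, Lyz2, C1qb, C1qc, Fcer1g and Laptm5). GAGGAA on either strand was found in the 250 bases before the RefSeq start of Cd68, C1qb, C1qc and Laptm5. In Laptm5 the match lay in bases that a GENCODE exon covers. The motif was found in 23.3% of all 32851 windows of that length. Counted from the RefSeq start, the motif began 30 bases before it in C1qb and 193 bases before it, on the other strand, in C1qc. For C1qc the bases between the stretch shown and the RefSeq start are covered by a GENCODE exon and left out, so this distance is not counted from the end of that stretch. A match is only a string of letters, and binding was not measured.

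The 10 genes were divided by tissue. In untransplanted mice all 10 were lower in marrow than in lung, and with leukaemia 9 of the 10 were. Csf1r had 0, 2.29 and 0.384 CPM in BM-AML and 0.140, 0.553 and 1.14 CPM in BM-Ctrl. In lung it had 8.95, 20.1 and 37.9 CPM in Lung-AML and 15.4, 24.5 and 23.2 CPM in Lung-Ctrl. The lowest lung library stood above the highest marrow library, and the 2 treatments overlapped within each tissue. Cd68, widely used as a macrophage stain, showed the same order. It had 1.36, 1.15 and 1.88 CPM in BM-AML and 0.605, 1.26 and 0.539 CPM in BM-Ctrl, while Lung-AML had 12.4, 17.6 and 26.3 CPM and Lung-Ctrl 23.2, 14.8 and 19.0 CPM.

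Adgre1, an adhesion-type receptor used to sort mouse macrophages, had 0, 0 and 5.03 CPM in BM-AML and 0.0465, 0.151 and 0 CPM in BM-Ctrl. In lung it had 2.51, 5.09 and 11.03 CPM in Lung-AML and 4.17, 5.76 and 6.22 CPM in Lung-Ctrl. The 144 counts in BM-AML were all in library 3, which lay within the range of the lung libraries. That library was not the highest for Csf1r, which had 60 of its 71 BM-AML counts in library 2.

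**Figure D1:**
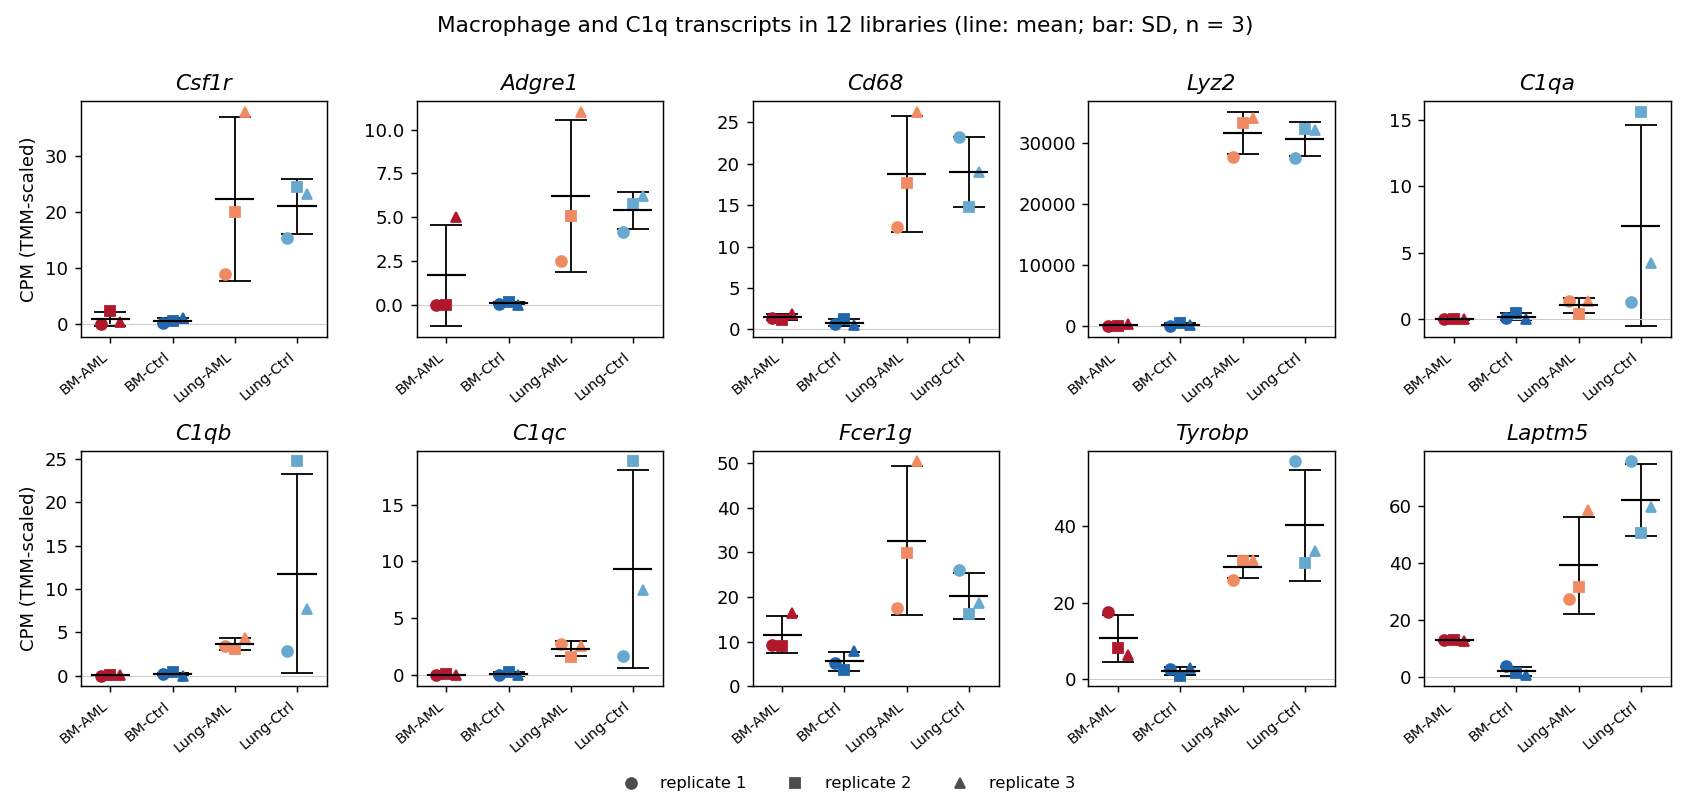
Levels of the 10 genes in each library, in TMM-scaled CPM on linear axes that differ between panels. Points are the 3 libraries of a group, horizontal lines are means and bars are SD (n = 3). All 10 genes sit lower in BM-Ctrl than in Lung-Ctrl, and Tyrobp and Laptm5 are higher in BM-AML than in BM-Ctrl.

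By edgeR's quasi-likelihood test with Benjamini-Hochberg adjustment over all 18147 genes tested, 10 of the 10 genes were lower in BM-Ctrl than in Lung-Ctrl at an adjusted p under 0.05. Of all genes tested, 34.7% were called lower, 29.4% higher and 64.2% in either direction. Log2 fold changes of BM-Ctrl over Lung-Ctrl ran from -1.85 ± 0.44 (SE) for Fcer1g to -7.11 ± 0.94 for Lyz2. Csf1r was at -5.13 ± 1.15 and Cd68 at -4.55 ± 0.48. The largest adjusted p by edgeR was 0.0151, for Adgre1 (-6.21 ± 1.93), which missed the threshold without BM-Ctrl library 1 (-6.01) or library 3 (-5.72), at an adjusted p of 0.0539 for each and a fold about as large. The median of the 10 genes was -5.06, against -0.20 for all genes. The groups of all 10 genes did not overlap, and neither did those of 74.8% of all genes.

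In BM-AML over Lung-AML, 9 of the 10 genes were called lower, where 25.2% of all genes were called lower, 22.4% higher and 47.6% in either direction. The exception was Adgre1, with a log2 fold change of -1.87 ± 1.47 (adjusted p = 0.321 by edgeR), and it was at -10.20 without BM-AML library 3 (adjusted p = 0.000475 by edgeR). Of the 9 genes called, the adaptors and Laptm5 lay closest to lung, at -1.46 ± 0.47 for Tyrobp, -1.49 ± 0.43 for Fcer1g and -1.59 ± 0.44 for Laptm5 on the log2 scale. Without Lung-AML library 3 none of the 3 passed, at -1.44 for Tyrobp (edgeR adjusted p = 0.0598), -1.05 for Fcer1g (0.0835) and -1.20 for Laptm5 (0.0628), so the fold of Tyrobp hardly moved. Tyrobp also missed the threshold without BM-AML library 2 (-1.32, adjusted p = 0.0646), BM-AML library 3 (-1.21, 0.0568) or Lung-AML library 2 (-1.30, 0.0839), by edgeR.

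Per kilobase of exon, a scale on which genes can be set beside each other, Lyz2 stood far above the rest in lung. Its mean was 24020 CPM per kb in Lung-AML and 23270 CPM per kb in Lung-Ctrl. The next highest gene was Tyrobp, at 44.0 CPM per kb in Lung-AML and 60.4 CPM per kb in Lung-Ctrl. Fcer1g followed at 37.3 and 23.2 CPM per kb in Lung-AML and Lung-Ctrl, Cd68 was at 14.9 and 15.1 CPM per kb, and Csf1r was at 3.86 and 3.64 CPM per kb. In marrow, Lyz2 was again first, at 87.3 CPM per kb in BM-AML and 169 CPM per kb in BM-Ctrl, with Tyrobp at 15.99 and 3.24 CPM per kb and Fcer1g at 13.3 and 6.42 CPM per kb in BM-AML and BM-Ctrl. The C1q chains were last in BM-AML, at 0.0112 CPM per kb for C1qa, 0.0331 for C1qb and 0.00659 for C1qc.

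Lyz2 encodes the lysozyme of macrophages and granulocytes and is also a product of type 2 alveolar epithelial cells, which are known for the surfactant protein gene Sftpc. Lyz2 had 49.5, 42.6 and 252 CPM in BM-AML and 82.9, 468 and 115 CPM in BM-Ctrl. In lung it had 27640, 33200 and 34000 CPM in Lung-AML and 27440, 32300 and 32120 CPM in Lung-Ctrl. The lung libraries were close to each other, and BM-AML library 3 and BM-Ctrl library 2 stood above the other marrow libraries. Lyz1, a near-identical neighbour, could take or give reads, so counts of this pair are uncertain.

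Sftpc was listed in every library, marrow included, and Lyz2 followed it. Lyz2 counts were 20.0 to 22.1% of Sftpc counts in BM-AML, 22.3 to 27.1% in BM-Ctrl, 16.4 to 21.6% in Lung-AML and 18.1 to 26.6% in Lung-Ctrl. Of the 6 marrow libraries, 5 lay within the range of the 6 lung libraries and BM-Ctrl library 1 lay just above it. The same ratio placed other genes elsewhere. Cd68, Fcer1g, Tyrobp and Laptm5 had more counts per Sftpc count in 6 of 6 marrow libraries than in any lung library. Tyrobp counts, for instance, were 7.12, 4.11 and 0.546% of Sftpc counts in BM-AML and 0.882, 0.0461 and 0.557% in BM-Ctrl, against at most 0.0376% in lung. Of the C1q values in marrow, which rest on 0 to 10 counts, C1qb lay within the lung range in 3 of 6 libraries and C1qa and C1qc in 1 each. The part of lung RNA in the marrow values of Lyz2 was not tested.

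**Figure D2:**
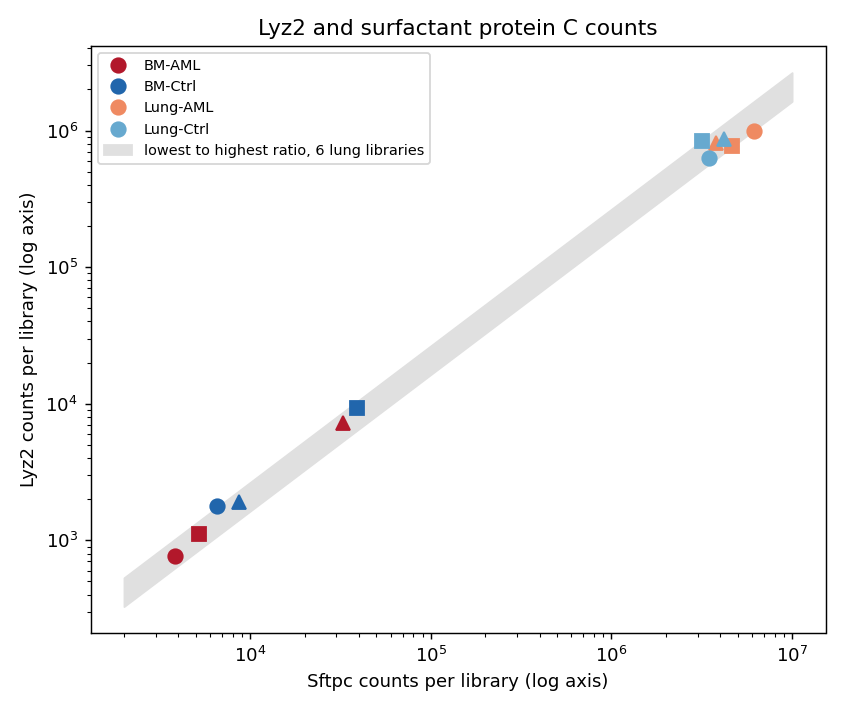
Counts of Lyz2 against counts of the surfactant gene Sftpc in each library, both on log axes. Each point is 1 library, and the grey band spans the lowest to the highest ratio in the 6 lung libraries, 16.4 to 26.6%. The 6 marrow points lie in the band or, for BM-Ctrl library 1, just above it.

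In marrow with leukaemia, the adaptor Tyrobp and Laptm5 rose relative to BM-Ctrl, and the receptors Csf1r and Adgre1 did not pass. Thus 2 of the 10 genes were called, both higher. Of all genes tested, 43.8% were called, 20.4% higher and 23.5% lower, so the share called higher among the 10 was near the background. Laptm5, a lysosomal protein that limits surface levels of immune receptors, had 13.21, 12.98 and 12.84 CPM in BM-AML, against 3.82, 1.56 and 0.839 CPM in BM-Ctrl. The 3 BM-AML libraries were almost level, and the lowest stood above the highest control. Its log2 fold change was 2.63 ± 0.48 (SE; adjusted p = 0.00117 by edgeR's quasi-likelihood test). Tyrobp, also known as DAP12, had 17.6, 8.13 and 6.25 CPM in BM-AML, against 2.70, 0.905 and 2.88 CPM in BM-Ctrl. Library 1 was highest in BM-AML and the groups did not overlap. The log2 fold change of Tyrobp was 2.30 ± 0.49 (adjusted p = 0.00323 by edgeR).

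Fcer1g, the common chain of several Fc receptors, had 9.26, 9.05 and 16.5 CPM in BM-AML, against 5.17, 3.77 and 7.91 CPM in BM-Ctrl. The groups did not overlap, but the log2 fold change of 1.05 ± 0.43 did not pass (adjusted p = 0.0693 by edgeR). It passed under 5 of 15 alternatives, with adjusted p between 0.0275 and 0.432 over all 15. Tyrobp, Laptm5 and Fcer1g were the 3 of the 10 genes whose marrow groups did not overlap, where 47.8% of all genes did not.

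The remaining genes did not pass in the marrow by the edgeR test. Csf1r was at 0.62 ± 1.06 (adjusted p = 0.667) and Cd68 at 0.87 ± 0.44 (adjusted p = 0.133) on the log2 scale, and Lyz2 at -0.95 ± 0.73 (adjusted p = 0.311). Without BM-AML library 3, Lyz2 was at -2.26 and passed (adjusted p = 0.0167), and without BM-Ctrl library 2 it was at 0.21. Those 2 libraries also had the highest Sftpc, at 1144 CPM in BM-AML library 3 and 1960 CPM in BM-Ctrl library 2. Without BM-Ctrl library 2, Cd68 was at 1.34 and passed (adjusted p = 0.0458 by edgeR). Adgre1 was at 4.54 ± 1.86 (adjusted p = 0.0679 by edgeR), and without BM-AML library 3, which held all of its BM-AML counts, it was at -3.78 (adjusted p = 0.152). It passed without BM-AML library 1 (adjusted p = 0.0268) or library 2 (adjusted p = 0.0222), which left library 3 with 1 other. Csf1r overlaps the antisense gene Hmgxb3 over 873 exonic bases, and counting ignored strand, so their reads cannot be told apart there. Hmgxb3 averaged 29.5 ± 15.4 CPM in BM-AML and 45.8 ± 10.5 CPM in BM-Ctrl (SD, n = 3 each).

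The C1q chains were near 0 in marrow. C1qa had 1 count in all 3 BM-AML libraries together, against 13 in BM-Ctrl, a ratio of 0.0636 with a 95% counting interval of 0.00150 to 0.423. C1qb had 3 counts against 10 (ratio 0.248, interval 0.0438 to 0.963), and C1qc 1 against 5 (ratio 0.165, interval 0.00349 to 1.48). These exact intervals, made on scaled totals, cover counting error only. BM-Ctrl library 2 held 10 of the C1qa, 7 of the C1qb and all 5 of the C1qc counts, and library 3 held 0. The chains did not pass the edgeR test between marrow groups, with adjusted p of 0.0931 for C1qa, 0.235 for C1qb and 0.306 for C1qc.

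Other leukocyte genes were uneven in the marrow AML libraries. BM-AML library 1 had 272 Tyrobp and 204 Laptm5 counts with 0 counts of Csf1r, Adgre1, C1qa, C1qb and C1qc, and 2 counts of Ptprc, the pan-leukocyte phosphatase CD45. Ptprc had 0.130, 5.003 and 0.175 CPM in BM-AML, against 7.87, 5.23 and 2.52 CPM in BM-Ctrl (log2 fold change -1.53 ± 0.96, adjusted p = 0.219 by edgeR). In contrast, 10 of 17 pan-leukocyte genes rose and 4 fell in BM-AML, where 20.4% of all genes rose and 23.5% fell, and without BM-Ctrl library 2 these counts were 9 and 0. The range of the list's sum was 894 to 1083 CPM in BM-AML and 503 to 714 CPM in BM-Ctrl, and none of its genes was at 0 in a group. The higher sum in BM-AML rested on Arhgdib. It averaged 433 ± 44.1 CPM in BM-AML against 14.4 ± 5.54 CPM in BM-Ctrl (log2 fold change 4.91 ± 0.38, adjusted p = 1.68e-05 by edgeR). Fermt3, the next highest gene in BM-AML and named after its values were seen, fell. Its mean was 207 CPM in BM-AML against 358 CPM in BM-Ctrl (log2 fold change -0.79, adjusted p = 0.0281 by edgeR).

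Lists of other cell types that express the adaptors varied in the marrow, where 20.4% of all genes rose and 23.5% fell. Of 7 tested mast cell and basophil genes, 5 rose and 0 fell, and the list's sum was 88.9 to 188 CPM in BM-AML against 9.34 to 26.6 CPM in BM-Ctrl, with Tpsab1 and Tpsb2 at 0 in both groups. Of 12 myeloid progenitor and blast genes, 6 rose and 1 fell, with sums of 407 to 504 CPM in BM-AML and 130 to 335 CPM in BM-Ctrl and 1 gene at 0 in BM-AML. Of 12 monocyte genes 2 rose and 0 fell, with sums of 55.4 to 80.9 CPM in BM-AML and 27.3 to 63.6 CPM in BM-Ctrl, which overlapped. Of 13 tested T and NK cell genes 1 rose and 0 fell, with sums of 6.35 to 24.1 CPM in BM-AML and 7.96 to 9.46 CPM in BM-Ctrl, 6 genes at 0 in BM-AML and 4 at 0 in BM-Ctrl. The part of these cells in the rise of Tyrobp and Laptm5 was not tested.

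Of all genes tested, 20.4% rose and 23.5% fell in BM-AML over BM-Ctrl. Across 24 other macrophage genes, 9 rose, 1 fell and 14 did not pass. Their median log2 fold change was 2.01, against -0.11 for all genes, and their sum was 259 to 527 CPM in BM-AML against 58.0 to 94.7 CPM in BM-Ctrl. Among the genes with the smallest p-values were the inhibitory receptor Lilrb4a, with 7.16 ± 0.97 CPM in BM-AML against 0.0478 ± 0.0466 CPM in BM-Ctrl (SD, n = 3 each), and Maf, a transcription factor of macrophage differentiation. The log2 fold change of Maf was 2.80 ± 0.42 (adjusted p = 0.000358 by edgeR). Trem2, Aif1, Ms4a7 and C3ar1 were chosen after their values were seen. Trem2, a receptor that signals through Tyrobp, was the gene called lower, with 0 CPM in every BM-AML library and a mean of 0.105 CPM in BM-Ctrl. Its BM-Ctrl libraries had only 0.0931 to 0.120 CPM, so the call rests on very few counts near the floor. The other 3 were also at 0 in every BM-AML library and did not pass, with means in BM-Ctrl of 0.0335 CPM for Aif1, 0 for Ms4a7 and 0.0168 CPM for C3ar1.

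The marrow counterpart of the tissue macrophage, the cell that surrounds red cell precursors and recycles iron, was described by 12 genes, of which 9 were tested. In BM-AML 5 rose and 1 fell, where 20.4% of all genes rose and 23.5% fell. The median log2 fold change was 1.27, and the sum was 794 to 950 CPM in BM-AML against 342 to 423 CPM in BM-Ctrl. Most of the BM-AML sum was Vcam1 and Axl, at means of 327 and 322 CPM. The gene that fell was Slc40a1, at 110 CPM in BM-AML against 188 CPM in BM-Ctrl (log2 fold change -0.77 ± 0.20, adjusted p = 0.0101 by edgeR). Axl and Slc40a1 were named after their values were seen. Nr1h3, a sterol-sensing nuclear receptor, rose by 3.03 ± 0.32 on the log2 scale (adjusted p = 5.02e-05 by edgeR), Vcam1, an adhesion molecule also known from endothelium and stroma, by 1.27 ± 0.22 (adjusted p = 0.000850) and Hmox1, the haem-degrading enzyme, by 2.08 ± 0.37 (adjusted p = 0.00107). Timd4, Cd5l, Vsig4 and Spic, markers of resident macrophages, were named after their values were seen. They were at or near 0 in both marrow groups. Cd5l and Vsig4 were at 0 in every marrow library, Timd4 was at 0 in BM-AML and averaged 0.0155 CPM in BM-Ctrl, and Spic averaged 0.0116 CPM in BM-AML and was at 0 in BM-Ctrl.

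Of the 15 alveolar macrophage genes, 3 rose in BM-AML and 0 fell, with a median of 0.22, and the share that rose was near the 20.4% of all genes. They were Pparg (2.51 ± 0.41, adjusted p = 0.000615 by edgeR), Fabp4 (2.24 ± 0.53, adjusted p = 0.00557) and Lpl (0.75 ± 0.27, adjusted p = 0.0401), which are also known from fat and capillary cells. Marco, Siglecf, Cidec and Krt79, named after their values were seen, were at 0 in every BM-AML library, and in BM-Ctrl they averaged 0.0168, 0.155, 0.0155 and 0 CPM, so neither marrow group held much of them.

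Both ligands of Csf1r rose in BM-AML, and the receptor did not pass. Of 13 tested genes among ligands, related growth factor receptors and the transcription factors upstream of Csf1r, 8 rose and 0 fell, with a median log2 fold change of 1.83. Of all genes tested, 20.4% rose and 23.5% fell. Il34, a ligand of Csf1r, averaged 82.6 ± 18.8 CPM in BM-AML against 7.61 ± 2.77 CPM in BM-Ctrl (log2 fold change 3.44 ± 0.30, adjusted p = 2.39e-05 by edgeR). Csf1, the other ligand, named after its values were seen, averaged 175 CPM in BM-AML against 53.1 CPM in BM-Ctrl (log2 fold change 1.72, adjusted p = 0.00106 by edgeR). Cebpb, a myeloid transcription factor, averaged 447 ± 142 CPM in BM-AML against 72.0 ± 15.6 CPM in BM-Ctrl. The sum of the list was 790 to 1138 CPM in BM-AML against 189 to 219 CPM in BM-Ctrl.

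Among 25 tested receptors, adaptors and kinases of ITAM signalling, 6 rose, 4 fell and 15 did not pass in BM-AML, with a median of 0.65. These shares were near those of all genes, 20.4% higher and 23.5% lower. Hcst (DAP10), the neighbour and sister adaptor of Tyrobp, averaged 2.06 ± 1.13 CPM in BM-AML against 0.131 ± 0.090 CPM in BM-Ctrl (log2 fold change 3.90 ± 0.71, adjusted p = 0.00121 by edgeR). The kinase Lyn rose by 1.46 ± 0.27 (adjusted p = 0.00137 by edgeR) and the lectin receptor Clec4d, which couples to Fcer1g, by 3.86 ± 0.91 (adjusted p = 0.00556). Syk, the kinase that binds the ITAM, went the other way, at 0.464 CPM in BM-AML against 3.47 CPM in BM-Ctrl (log2 fold change -2.83, adjusted p = 0.0328 by edgeR), and was named after its values were seen.

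Of 27 tested complement genes other than C1q, 8 rose and 3 fell in BM-AML, which is no larger a share than the 43.8% of all genes called, with a median log2 fold change of 0.95 and a sum of 3493 to 4677 CPM in BM-AML against 1922 to 2287 CPM in BM-Ctrl. C1ra, a protease that sits on C1q, averaged 108 ± 28.7 CPM in BM-AML against 21.7 ± 7.46 CPM in BM-Ctrl (log2 fold change 2.31 ± 0.43, adjusted p = 0.00130 by edgeR). Serping1, the inhibitor of that protease, averaged 1644 ± 210 CPM in BM-AML against 242 ± 62.2 CPM in BM-Ctrl (2.76 ± 0.50, adjusted p = 0.00112 by edgeR). Cfi, which cleaves C3b and C4b, had 4.77 ± 1.96 CPM in BM-AML against 0.0168 ± 0.0290 CPM in BM-Ctrl.

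Of 24 lysosome and phagocytosis genes, 16 rose and 1 fell in BM-AML, with a median log2 fold change of 1.05. Of all genes tested, 20.4% rose and 23.5% fell. Ctsc, a cathepsin that activates granule proteases, averaged 156 ± 24.0 CPM in BM-AML against 17.4 ± 5.76 CPM in BM-Ctrl (3.16 ± 0.27, adjusted p = 1.92e-05 by edgeR). Laptm4b, a relative of Laptm5, averaged 39.0 ± 9.21 CPM in BM-AML against 8.16 ± 1.95 CPM in BM-Ctrl. Ctsd, a lysosomal aspartic protease, fell to 270 ± 11.6 CPM in BM-AML, against 632 ± 69.1 CPM in BM-Ctrl. Over 8 lists (pan-leukocyte, other macrophage, marrow macrophage, alveolar macrophage, Csf1r pathway, ITAM, complement and lysosome genes), 139 distinct genes were tested, of which 59 rose and 12 fell. The shares of all genes, 20.4% higher and 23.5% lower, apply to this count and to those that follow. The sums of 20 pan-endothelial genes overlapped between the marrow groups, with 1 gene higher and 9 lower. In the same libraries 14 of 14 erythroid genes fell, and 10 of 12 pericyte and smooth muscle genes rose, with sums of 2656 to 9848 CPM in BM-AML against 223 to 718 CPM in BM-Ctrl and no gene at 0. The part of these cells in the list results was not tested.

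In lung, none of the 10 genes differed between Lung-AML and Lung-Ctrl past the threshold. By edgeR 0 of 10 were called, where 2.33% of all genes were (1.17% higher and 1.16% lower), and 1 had an unadjusted p under 0.05, C1qa. How many of all genes had an unadjusted p under 0.05 was not counted. DESeq2 and limma-voom also called 0. The groups of 0 of the 10 genes were free of overlap, against 35.0% of all genes. Tyrobp had 25.9, 30.9 and 31.2 CPM in Lung-AML, against 57.0, 30.4 and 33.5 CPM in Lung-Ctrl. Laptm5 had 27.4, 31.6 and 58.9 CPM in Lung-AML, against 75.9, 50.8 and 59.8 CPM in Lung-Ctrl. For both genes, Lung-Ctrl library 1 was highest and the groups overlapped. Their log2 fold changes were -0.46 ± 0.46 for Tyrobp (adjusted p = 0.744 by edgeR) and -0.66 ± 0.43 for Laptm5 (adjusted p = 0.534 by edgeR). Fcer1g had 17.5, 29.9 and 50.4 CPM in Lung-AML, against 26.1, 16.1 and 18.7 CPM in Lung-Ctrl, at 0.69 ± 0.42 (adjusted p = 0.499 by edgeR). Lung-AML library 3 was the highest lung library for Fcer1g, Csf1r, Adgre1 and Cd68. Csf1r was at 0.08 ± 0.94, Adgre1 at 0.20 ± 1.42, Cd68 at -0.02 ± 0.40 and Lyz2 at 0.05 ± 0.72 on the log2 scale.

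The C1q chains had the largest fitted differences of the 10 genes in lung. C1qa had 1.38, 0.385 and 1.42 CPM in Lung-AML, against 1.30, 15.6 and 4.26 CPM in Lung-Ctrl. C1qb had 3.37, 3.08 and 4.37 CPM in Lung-AML, against 2.83, 24.7 and 7.74 CPM in Lung-Ctrl. C1qc had 2.76, 1.54 and 2.58 CPM in Lung-AML, against 1.70, 18.8 and 7.44 CPM in Lung-Ctrl. Lung-Ctrl library 2 was highest for all 3 chains, library 3 second and library 1 within or below the range of Lung-AML, so the groups overlapped. Fitted log2 fold changes were -2.72 ± 1.11 for C1qa (adjusted p = 0.242 by edgeR), -1.70 ± 0.87 for C1qb (adjusted p = 0.374) and -2.02 ± 1.01 for C1qc (adjusted p = 0.360). Without Lung-Ctrl library 2 they were -1.39, -0.55 and -0.99, with edgeR adjusted p of 0.753, 0.924 and 0.856.

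Per kilobase of exon, C1qb made up 47.2 to 70.8%, C1qa 9.26 to 31.6% and C1qc 18.6 to 25.6% of the 3 chains' sum over the 6 lung libraries. The lowest share of C1qa, in Lung-AML library 2, came from 9 counts. The mean share of C1qc was 21.5% by the union of exons and 30.5% by the longest transcript, so the scale matters to the order of C1qa and C1qc. The summed C1q level was 7.52, 5.01 and 8.37 CPM in Lung-AML, against 5.83, 59.2 and 19.4 CPM in Lung-Ctrl.

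The C1q chains and the macrophage receptors peaked in different lung libraries. Lung-AML library 3 had the most Csf1r, at 37.9 CPM, with a C1q sum of 8.37 CPM, and Lung-Ctrl library 2 had 24.5 CPM of Csf1r with a C1q sum of 59.2 CPM. Lung-Ctrl library 2 was also the library with the most Cdh5, at 348 CPM, and the least Sftpc of the lung libraries, at 121600 CPM. Within Lung-AML, library 2 had the most Cdh5 and the lowest C1q sum. Within Lung-Ctrl the order of the libraries was the same for C1q, Cdh5 and Csf1r. Over the 6 lung libraries, log2 CPM was compared with the mean of the C1q chains. Spearman rho was 0.543 for Cdh5, 0.6 for Csf1r, 0.543 for Adgre1 and -0.086 for Cd68. Pearson r was 0.683 for Cdh5, 0.29 for Csf1r, 0.199 for Adgre1 and -0.308 for Cd68. The part of the endothelial share in the C1q values was not tested.

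**Figure D3:**
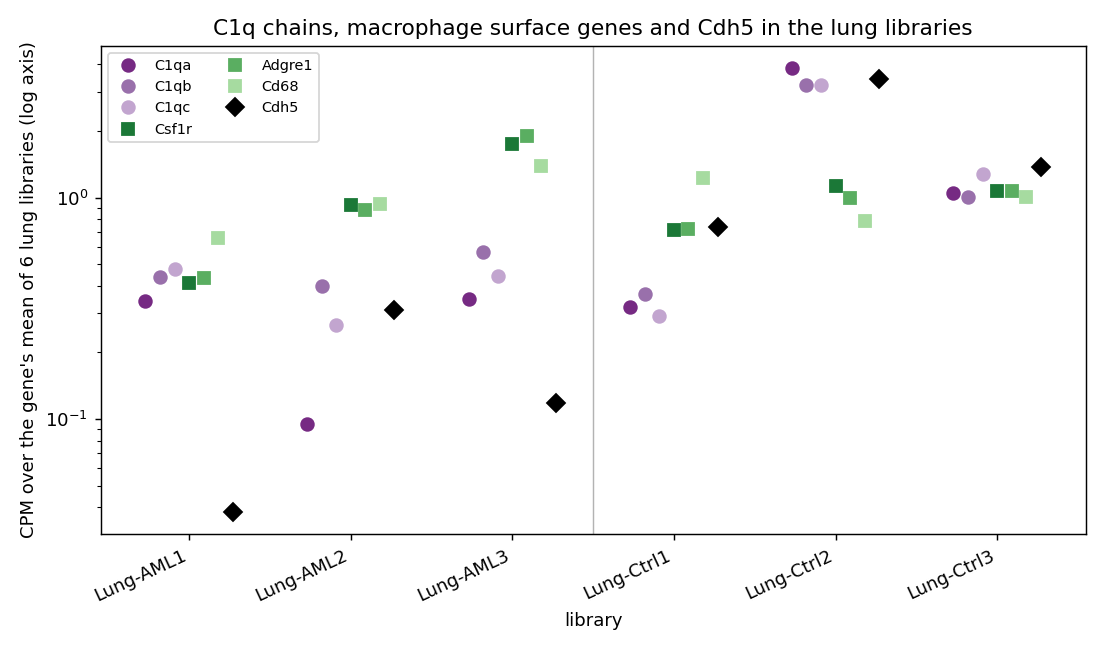
Levels of the 3 C1q chains (circles), Csf1r, Adgre1 and Cd68 (squares) and the endothelial gene Cdh5 (diamonds) in each lung library, as CPM over the gene's own mean of the 6 libraries on a log axis. The C1q chains and Cdh5 peak in Lung-Ctrl library 2, and Csf1r and Adgre1 peak in Lung-AML library 3.

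The 5 genes whose log2 CPM followed the mean of the C1q chains most closely over the 12 libraries, out of 10012 with a mean of at least 10 CPM, were Adrb1, Slc16a9, Ly6e, Thsd1 and Npr3, with Pearson r of 0.975, 0.972, 0.967, 0.966 and 0.963. These r values describe 12 libraries that share the tissue difference, and within the 6 lung libraries they lay between 0.761 and 0.846. Thsd1 had 7.79, 13.1 and 7.74 CPM in Lung-AML, against 39.5, 110 and 51.9 CPM in Lung-Ctrl.

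In lung, the union of the pan-leukocyte, other macrophage, marrow macrophage, alveolar macrophage, Csf1r pathway, ITAM, complement and lysosome lists was called about as often as all genes. Of 139 distinct genes tested by edgeR, 1 rose and 3 fell, where 2.33% of all genes were called, and the median log2 fold change was -0.14. An unadjusted p under 0.05 was found for 27 of the 139, and the share of all genes at that unadjusted threshold was not counted. The lysosomal protease Ctsh rose to 2459 ± 83.2 CPM in Lung-AML, against 959 ± 119 CPM in Lung-Ctrl (1.36 ± 0.29, adjusted p = 0.0382 by edgeR). Csf1 fell to 36.1 ± 6.91 CPM in Lung-AML, against 90.3 ± 13.1 CPM in Lung-Ctrl (-1.32 ± 0.30, adjusted p = 0.0476 by edgeR). Kit, the stem cell factor receptor, fell to 40.3 ± 2.18 CPM against 295 ± 250 CPM in Lung-Ctrl (-2.87 ± 0.63, adjusted p = 0.0405 by edgeR), and Vcam1 to 30.1 ± 2.30 CPM against 62.2 ± 14.5 CPM in Lung-Ctrl (-1.05 ± 0.22, adjusted p = 0.0325 by edgeR). Between 0 and 1 of the 139 genes passed when any 1 lung library was left out. DESeq2 called 17 of them and limma-voom 28, and the share of all genes called by these methods was not counted.

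Among alveolar macrophage genes 0 of 15 were called in lung by edgeR and 3 had an unadjusted p under 0.05, with a median of -1.23 against 0.00 for all genes. DESeq2 called 2 and limma-voom 6 of them, all lower in Lung-AML. Both methods also called more of the 139 list genes in lung, 17 and 28 against 4 by edgeR. Their share over all genes was not counted, and neither was the share of all genes with an unadjusted p under 0.05 by edgeR. Siglecf, a defining receptor of these cells, averaged 0.592 ± 0.418 CPM in Lung-AML and 4.83 ± 1.90 CPM in Lung-Ctrl, at -3.01 ± 1.22 (adjusted p = 0.254 by edgeR). The list's sum was 275 to 304 CPM in Lung-AML and 414 to 668 CPM in Lung-Ctrl, and none of its genes was at 0 in either group. Cd68, at 18.8 ± 6.997 CPM in Lung-AML and 19.0 ± 4.21 CPM in Lung-Ctrl (SD, n = 3 each), did not differ beyond its spread between the same libraries.

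**Figure D4:**
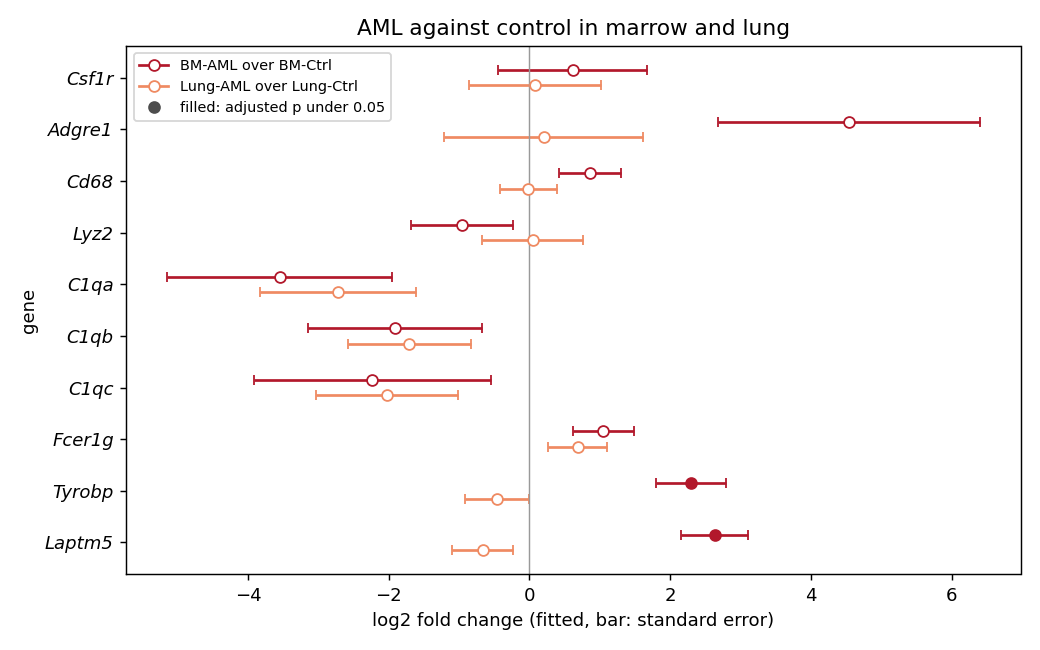
Fitted log2 fold changes of the 10 genes (points) with their standard errors (bars) for BM-AML over BM-Ctrl and Lung-AML over Lung-Ctrl. Filled points have an adjusted p under 0.05 by edgeR, which Tyrobp (2.30) and Laptm5 (2.63) reach in marrow and no gene reaches in lung.

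The effect of leukaemia differed between the tissues for the same 2 genes that were called in marrow. The difference of the effects, BM-AML over BM-Ctrl minus Lung-AML over Lung-Ctrl, was 3.29 ± 0.64 for Laptm5 (adjusted p = 0.00318 by edgeR) and 2.76 ± 0.67 for Tyrobp (adjusted p = 0.00977 by edgeR), log2 scale. Both lay higher in marrow, 2 of 10 genes where 14.6% of all genes were called in that direction, 16.1% in the other and 30.7% in either. Fcer1g did not differ by this test (0.37 ± 0.60, adjusted p = 0.692), and its fitted changes were positive in both tissues. The C1q chains had negative fitted changes in both tissues, with differences of -0.83 ± 1.51 for C1qa, -0.20 ± 0.99 for C1qb and -0.21 ± 0.86 for C1qc. Adgre1 was at 4.34 ± 2.32 (adjusted p = 0.184 by edgeR) and rested on BM-AML library 3, without which it was at -3.99.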

How the data were processed

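Total RNA was amplified and made into libraries with low-input kits, per the labels' protocols. bcl2fastq, STAR and mm10 are named, without versions, in the submitters' processing notes. Neither counter nor annotation was given in the sources used here. Deposited files hold raw counts per gene symbol, not normalized by the authors, and their naming marks counting without regard to strand.

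Counts were tested in R 4.3.3 with edgeR 4.0.16 (robust quasi-likelihood F test), in 1 model of 4 groups and 12 libraries. A filter on expression (minimum count 10 and minimum total 15) kept 18147 genes, TMM scaled the libraries, and 8 residual degrees of freedom remained. Calls used Benjamini-Hochberg adjustment over all genes tested at 0.05. The fit was tested on simulated data. Alternatives were DESeq2 1.42.0, limma 3.58.1 (voom with quality weights), other scalings and filters, a fit of only the libraries compared, a block for replicate number and fits without 1 library. Ratios of groups with 1 to 3 counts have exact 95% intervals. Positions and exon lengths are from GENCODE (GRCm38), and promoter sequences from RefSeq (GRCm38.p6).

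A fixed rule named the 10 genes, Cdh5, Pecam1, Ptprc, up to 3 genes per list with the smallest unadjusted p in a comparison and the 5 genes most like C1q. Names outside it are marked where they appear, except Sftpc, Lyz1, Hmgxb3, Tpsab1 and Tpsb2, which the rule did not name either. A gene that the rule also named is not reported here. The 10 genes and all lists were chosen with earlier results of these data known. The labels do not say whether libraries with the same replicate number share a mouse or batch, and the main fit treated all libraries as unpaired.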

Additional observations from a re-analysis of the deposited data

Results flagged for a closer look

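The effect of leukaemia on Tyrobp and on Laptm5 differed between marrow and lung, by the test of the difference of the effects. For Tyrobp the difference was 2.76 ± 0.67 on the log2 scale (adjusted p = 0.00977 by edgeR), with higher levels in BM-AML than in BM-Ctrl in 3 of 3 libraries against overlapping lung groups. For Laptm5 it was 3.29 ± 0.64 (adjusted p = 0.00318 by edgeR), with the same arrangement. Both differences passed under all 20 alternatives run for them, from 2.20 to 3.15 for Tyrobp and from 2.92 to 4.08 for Laptm5.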

How the results depend on the processing

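The calls of Tyrobp and Laptm5 in marrow held under all 15 alternatives (1.74 to 2.61 and 2.26 to 3.43, log2). The 2 genes called in BM-AML over BM-Ctrl became 4 with library totals alone (Cd68 and Fcer1g added) and 4 with DESeq2 (Adgre1 and Fcer1g added). Library totals also moved the median of all genes to 0.16, against -0.11 with TMM. Leaving out 1 library gave 2 to 3 calls in BM-AML over BM-Ctrl, 0 in Lung-AML over Lung-Ctrl, 2 in the difference, 9 to 10 in BM-Ctrl over Lung-Ctrl and 6 to 9 in BM-AML over Lung-AML. In BM-AML over Lung-AML, limma-voom left 6 calls (without Csf1r, C1qa, Fcer1g and Laptm5 and with Adgre1) and library totals 7 (without Fcer1g and Tyrobp). Over the 10 genes and all alternatives, 716 values kept their direction and call and 37 reversed, with no reversed value past the threshold, and the cause was not tested. Same-numbered libraries of different groups deviated together in 3 of 18 pairs by a correlation over 0.1 (range -0.162 to 0.183). With the replicate block the calls were 3 in BM-AML over BM-Ctrl, 0 in lung, 2 in the difference, 10 in BM-Ctrl over Lung-Ctrl and 9 in BM-AML over Lung-AML, and Csf1r (-0.17) and Adgre1 (-0.23) reversed in lung. With limma-voom Csf1r was at -0.31 in marrow, -0.22 in lung and -0.086 in the difference, Adgre1 at -0.24, -0.14 and -0.10, and C1qc at 0.75 in the difference. Library totals gave -0.036 for Lyz2 in lung and 0.17 for C1qb and 0.13 for C1qc in the difference, and the filter of 5 CPM in 3 libraries 0.006 for Cd68 in lung. Leaving out 1 library gave ranges in marrow of -1.38 to 1.41 for Csf1r, -3.78 to 5.79 for Adgre1, -2.26 to 0.21 for Lyz2 and -4.10 to 1.90 for C1qc. In lung they were -0.54 to 0.46 for Csf1r, -0.50 to 0.58 for Adgre1, -0.34 to 0.21 for Cd68 and -0.043 to 0.136 for Lyz2. In the difference they were -1.47 to 1.32 for Csf1r, -3.99 to 5.58 for Adgre1, -2.31 to 0.16 for Lyz2, -2.67 to 0.64 for C1qa, -1.36 to 0.89 for C1qb and -2.08 to 3.91 for C1qc. The C1q chains had too few counts for the 5 CPM filter and, with Adgre1, for a fit of only the marrow libraries, and gave no value there. The 71 list genes called in marrow were 56 to 80 under the alternatives that kept all libraries and 59 to 73 with 1 left out. ITAM genes called in marrow were 10, but 5 with limma-voom. The 4 called in lung were 3 with library totals, 8 with the 5 CPM filter, 13 with a fit of only the lung libraries, 17 with DESeq2 and 28 with limma-voom. Depth limits the C1q chains most, at 0 to 2 counts in each BM-AML library.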

Other observations

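Lyz1, the paralog next to Lyz2, had 2.72, 2.60 and 8.41 CPM in BM-AML and 3.35, 39.2 and 2.28 CPM in BM-Ctrl, and 986, 1395 and 966 CPM in Lung-AML and 1593, 2965 and 1699 CPM in Lung-Ctrl. All 3 Lung-AML libraries lay below all 3 Lung-Ctrl libraries for Lyz1, while the Lyz2 groups overlapped. Its log2 fold change in lung was -0.90 and did not pass the edgeR test.

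Neutrophil genes, another source of lysozyme, overlapped in summed level between the marrow groups. Of 15 tested, 1 rose and 1 fell in BM-AML over BM-Ctrl, and 0 were called in lung, where 8 had an unadjusted p under 0.05 and the median log2 fold change was 2.45. Of all genes, 20.4% rose and 23.5% fell in marrow, and 2.33% were called in lung. The share of all genes with an unadjusted p under 0.05 in lung was not counted. The list's sum was 565 to 816 CPM in Lung-AML against 337 to 496 CPM in Lung-Ctrl, and 34.5 to 192 CPM in BM-AML against 35.5 to 382 CPM in BM-Ctrl.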
